A study of Mus musculus with 8 samples.

Results

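The messages of ribosomal proteins were examined in mouse peritoneal macrophages labelled as Men1 knockout or wild type. The gene set was every protein-coding row of the deposited count table named Rpsa or carrying a ribosomal protein symbol (Rps, Rpl or Rplp followed by a number and at most a short suffix). It held 83 of 54532 rows, 32 for the small subunit and 51 for the large subunit. The rule itself used no expression value, but the set was chosen with earlier results of these data known. Of the 83 genes, 81 passed the filter on low counts, and the other 2, Rpl3l and Rpl10l, are described with the paralogs. Rows annotated as pseudogenes, such as Rps3a2, Rps3a3 and Rps4l, are not in the set and appear below only as copies of its members.

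The cells were macrophages from the peritoneal cavity of mice given thioglycollate broth, which elicits an inflammatory influx of white cells, so all groups share that treatment. The knockout cells were labelled KO for Men1, the gene of the histone methyltransferase cofactor menin, and the others WT. There were 3 M_KO libraries (M_KO_5944, M_KO_5645 and M_KO_5642), 3 M_WT libraries (M_WT_5643, M_WT_6258 and M_WT_6255), 1 F_KO library (F_KO_5639) and 1 F_WT library (F_WT_5638). The letters M and F are not spelled out in the labels. The labels used here give no strain, age, Cre driver or allele. Values below are given in that order of libraries, named by the animal number in their titles, and no label tells how the animals were related.

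Total counts ran from 18206427 to 22853583 per library. Men1 averaged 7.68 ± 1.01 CPM, counts scaled to a common library total, in M_KO and 21.5 ± 4.35 CPM in M_WT (SD, n = 3 each), and was at 11.8 CPM in F_KO and 18.0 CPM in F_WT, so transcript remained in every KO library. The M log2 fold change of -1.49 (SE 0.21) had adjusted p-values of 0.284 in edgeR and 1.75e-06 in DESeq2. All 8 macrophage markers were detected, with a summed level of 14686 to 17130 CPM in M_KO and 17428 to 25582 CPM in M_WT. Markers of B cells summed to 187 to 581 CPM in M_KO and 124 to 388 CPM in M_WT, those of neutrophils to 250 to 622 CPM in M_KO and 204 to 387 CPM in M_WT, and those of mast cells to 102 to 620 CPM in M_KO and 305 to 765 CPM in M_WT. T cell markers summed to 5.29 to 18.2 CPM in M_KO and 3.10 to 12.8 CPM in M_WT, and eosinophil and erythroid markers stayed under 3 CPM. No listed marker was at 0 in all libraries. Their part in the results below was not tested. In RNA from a cell population, fewer cells of a type and less RNA per cell cannot be told apart.

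Ribosomal proteins are made in near-equal numbers, since a ribosome holds a single copy of most of them, and their messages are among the most abundant of a cell. Most carry a terminal oligopyrimidine tract at the start of the message, through which their translation follows nutrient signals. Mammalian genomes also hold very many processed pseudogenes of these genes, made by reverse transcription of their messages, which resemble the spliced coding sequence closely. A short read from such a message can therefore match a member and a copy equally well or nearly so. No source used here states how reads that match several places were counted or whether strand was used, so the counts of the members and of their copies are uncertain with respect to each other.

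The sequences below show how few coding bases separate 4 members whose counts differed between animals from copies that were also counted. They are coding bases from the GENCODE M21 transcripts (GRCm38), 5′ to 3′ on the sense strand, with the bases that differ within a set in capitals. Rpl34 (chr3:130726831-130730398, minus strand), a large-subunit protein, differs from its copy Rpl34-ps1 (chr6:71124610-71124963, plus strand) at 2 of 351 coding bases, of which 2 lie in coding bases 52 to 351.
Rpl34: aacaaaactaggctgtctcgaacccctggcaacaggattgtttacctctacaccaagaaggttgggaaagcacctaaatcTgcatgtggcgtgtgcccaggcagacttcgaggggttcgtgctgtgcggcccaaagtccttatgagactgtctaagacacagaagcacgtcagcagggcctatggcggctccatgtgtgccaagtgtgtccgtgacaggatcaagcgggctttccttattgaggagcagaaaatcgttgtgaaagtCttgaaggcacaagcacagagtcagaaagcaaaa
Rpl34-ps1: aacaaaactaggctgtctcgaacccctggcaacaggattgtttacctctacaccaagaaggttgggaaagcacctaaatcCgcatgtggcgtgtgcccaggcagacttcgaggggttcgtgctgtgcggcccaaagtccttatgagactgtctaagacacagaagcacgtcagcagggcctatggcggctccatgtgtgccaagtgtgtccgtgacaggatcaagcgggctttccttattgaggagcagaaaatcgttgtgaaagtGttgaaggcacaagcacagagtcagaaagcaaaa

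Rps3a1 (chr3:86137940-86142702, minus strand), a small-subunit protein, differs from Rps3a2 (chr14:88123017-88123808, minus strand) at 4 of 792 coding bases, of which 2 lie in coding bases 529 to 648.
Rps3a1: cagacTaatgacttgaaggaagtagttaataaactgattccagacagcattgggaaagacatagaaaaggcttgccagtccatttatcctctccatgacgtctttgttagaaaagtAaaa
Rps3a2: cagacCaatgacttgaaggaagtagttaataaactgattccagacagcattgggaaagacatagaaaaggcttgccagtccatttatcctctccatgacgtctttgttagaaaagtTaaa

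Rps18 (chr17:33951999-33956001, minus strand), a small-subunit protein, differs at 3 of 456 coding bases from Gm11361 (chr13:28257528-28258134, plus strand), which the file lists as protein-coding, and at 3 from Rps18-ps3 (chr8:107262793-107263248, minus strand). Coding bases 116 to 235 are shown.
Rps18: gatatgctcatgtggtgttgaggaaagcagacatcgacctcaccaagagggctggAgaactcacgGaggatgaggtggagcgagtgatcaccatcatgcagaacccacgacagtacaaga
Gm11361: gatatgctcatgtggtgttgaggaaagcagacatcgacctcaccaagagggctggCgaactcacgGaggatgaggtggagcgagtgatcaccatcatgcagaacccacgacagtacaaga
Rps18-ps3: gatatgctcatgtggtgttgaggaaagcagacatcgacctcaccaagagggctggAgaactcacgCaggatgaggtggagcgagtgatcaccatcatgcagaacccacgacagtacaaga

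Rps2 (chr17:24718116-24721929, plus strand), a small-subunit protein at the entry of the messenger RNA channel, differs from Rps2-ps13 (chrX:52898588-52899469, plus strand) at 7 of 879 coding bases, of which 2 lie in coding bases 12 to 131.
Rps2: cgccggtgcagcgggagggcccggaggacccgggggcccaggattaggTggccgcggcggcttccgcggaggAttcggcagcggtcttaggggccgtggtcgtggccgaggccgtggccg
Rps2-ps13: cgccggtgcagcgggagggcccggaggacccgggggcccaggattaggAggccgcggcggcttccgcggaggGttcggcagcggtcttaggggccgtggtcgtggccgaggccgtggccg

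Ribosomal protein messages made up a similar share of all counts in every library, between 3.29% and 3.75%. After TMM scaling, which sets libraries to a common level over most genes, the 83 genes summed to 36228, 34438 and 33410 CPM in M_KO and to 40200, 35659 and 33205 CPM in M_WT. The sum was 36910 CPM in F_KO and 35430 CPM in F_WT. The M_KO and M_WT sums overlapped, and the highest and the lowest sum both came from M_WT. On the TMM scale M_WT_5643 was the highest of the 8 libraries for 49 of the 81 tested members, and M_KO_5642 the lowest for 28. By share of all counts these libraries were close, at 3.72% in M_WT_5643 and 3.70% in M_KO_5642. The low rank of M_KO_5642 is therefore not a low share of its counts. The order of the group means also depended on the scale, with M_KO above M_WT by share and below it by TMM-scaled sum.

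**Figure D1:**
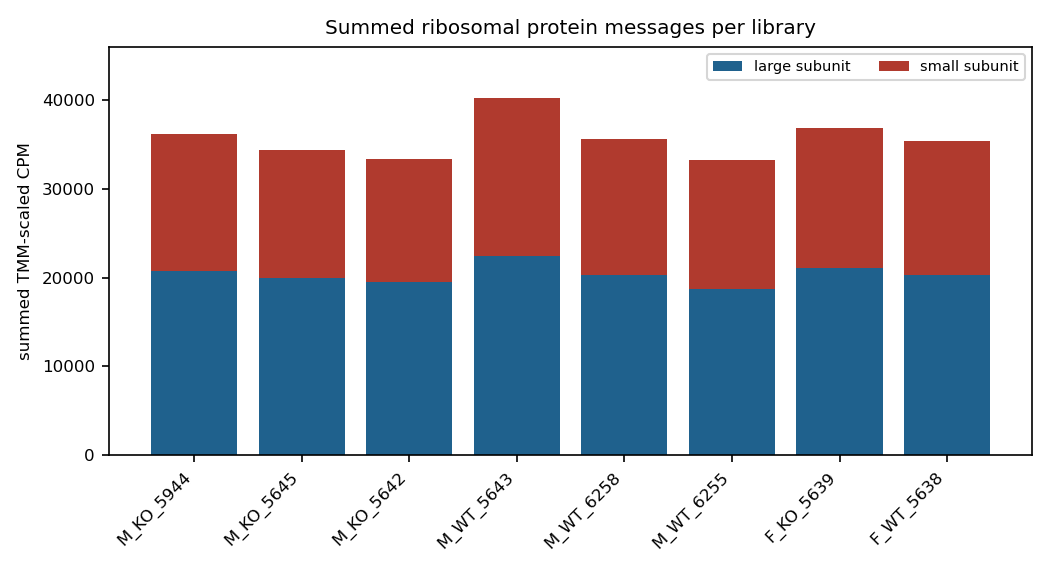
Summed TMM-scaled CPM of the 83 ribosomal protein genes in each library, large-subunit genes below and small-subunit genes above, with M_KO left of M_WT and F_KO left of F_WT. The sums lie between 33205 and 40200 CPM, and the M_KO and M_WT bars overlap in height.

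Levels between genes were compared per gene length, as FPKM in the deposited table. The median tested member stood at 204 FPKM over the 8 libraries, and 66 members were above 100 FPKM. Rplp1, an acidic protein of the ribosomal stalk that helps recruit elongation factors, was the highest, at 1790 ± 168 FPKM in M_KO and 1829 ± 123 FPKM in M_WT (SD, n = 3 each). Its lowest library, at 1628 FPKM, was above the highest library of the next gene, Rpl36, at 921 FPKM. Rpl36 averaged 792 ± 33.2 FPKM in M_KO and 808 ± 104 FPKM in M_WT. Rplp0, which anchors the stalk, averaged 736 ± 48.8 FPKM in M_KO and 703 ± 143 FPKM in M_WT. Rps29 averaged 757 ± 134 FPKM in M_KO and 766 ± 151 FPKM in M_WT. Rps15 averaged 660 ± 46.0 FPKM in M_KO and 682 ± 69.3 FPKM in M_WT. The ranges of Rpl36, Rplp0, Rps29 and Rps15 over the 8 libraries overlapped, so their order is not resolved.

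At the other end, 4 tested members were under 10 FPKM. Rpl13a, which in human cells is also part of an interferon-gamma-activated complex that silences translation, averaged 8.12 ± 0.799 FPKM in M_KO and 8.43 ± 0.149 FPKM in M_WT. Rpl24 averaged 2.67 ± 0.769 FPKM in M_KO and 3.12 ± 0.198 FPKM in M_WT. Rps10 averaged 1.27 ± 0.114 FPKM in M_KO and 1.45 ± 0.390 FPKM in M_WT. For Rps10 and Rpl24 the copies held most of the family's counts. Rps10 had 2.78, 3.31 and 2.84 CPM in M_KO and 4.40, 2.77 and 2.94 CPM in M_WT, while its processed pseudogene Rps10-ps2 on chromosome 16 had 133, 132 and 110 CPM in M_KO and 131, 115 and 112 CPM in M_WT. Sequence copies, defined below, held 97.6% of the summed Rps10 family and 62.9% of the Rpl24 family. The Rpl24 family as a whole stayed low, with a mean over the 8 libraries of 2.78 CPM for Rpl24 and 4.71 CPM for its copies together.

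The paralogs, genes that encode variants of a ribosomal protein, were mostly low. Rpl22l1 averaged 24.0 ± 5.41 FPKM in M_KO and 25.4 ± 2.51 FPKM in M_WT, and Rpl7l1 ran from 22.9 to 27.6 FPKM in M_KO and from 23.3 to 26.2 FPKM in M_WT. Rps27l, a p53 target, averaged 71.6 ± 18.4 FPKM in M_KO and 95.5 ± 14.2 FPKM in M_WT. Rpl39l averaged 0.708 ± 0.919 FPKM in M_KO and 0.801 ± 0.196 FPKM in M_WT, from 2 to 30 counts per library. Rpl3l, the form known from striated muscle, had 17 counts over all 8 libraries. Rpl10l, the form known from testis, had 0 counts in every library, which allows up to 3 counts in each, counting error only.

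**Figure D2:**
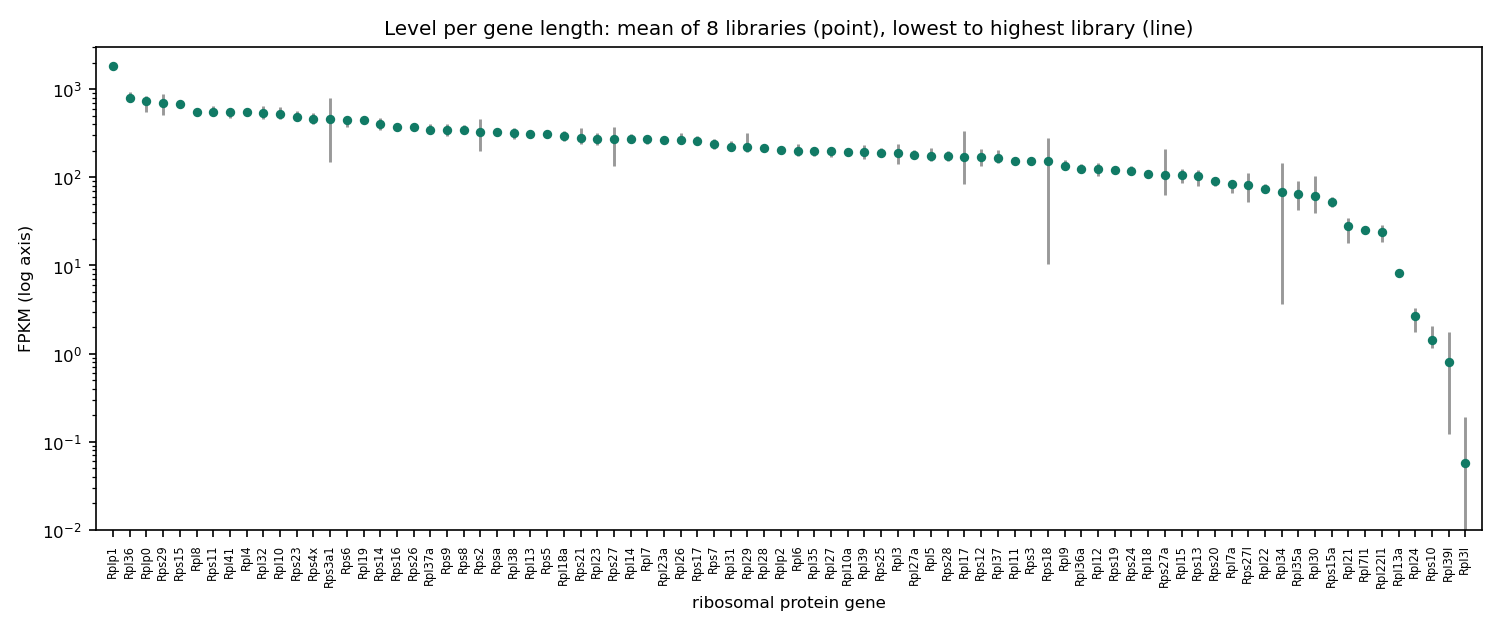
FPKM on a log axis of each ribosomal protein gene with any count, ordered by the mean of the 8 libraries (point), with a line from the lowest to the highest library. Most genes lie above 100 FPKM with short lines, while Rpl34, Rps18 and Rps3a1 have long ones. Rpl13a, Rpl24, Rps10, Rpl39l and Rpl3l are under 10 FPKM, and among these Rpl39l and Rpl3l also have long lines. The lowest value of Rpl3l is 0 and is drawn at the bottom of the axis.

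The comparison of M_KO with M_WT asked whether loss of Men1 changed these messages. No member passed edgeR's quasi-likelihood test at a Benjamini-Hochberg adjusted p under 0.05 (0 of 81), against a background of 0.022% of all tested genes (3 of 13646). At an unadjusted p under 0.05 there were 2 members, Rps2 and Rpl30, against 9.56% of all tested genes. DESeq2 called those 2 members, against a background of 1.47%. It called 1 lower, Rps2 (background 0.704%), and 1 higher, Rpl30 (background 0.763%). The authors' deposited table calls 1 of the 82 members it lists, Rps2, against 0.553% of its rows. With 5 libraries edgeR called 1 member in 2 cases: Rps3a1 without M_WT_5643, where it called 21 of all 14110 tested genes (0.149%), and Rpl34 without M_WT_6258, where it called 5 of 14135 (0.0354%).

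Most members differed little between M_KO and M_WT. The median log2 fold change was -0.078, beside 0.010 for all tested genes, and the quartiles of the members lay between -0.11 and -0.023. Of the 81 members, 72 lay within 0.25 of 0 on the log2 scale (88.9%), beside 55.2% of all tested genes. Members also had smaller errors, with a median SE of 0.14 beside 0.24 for all tested genes. How far this accounts for the difference in shares was not tested. The fitted value was below 0 for 70 members and above 0 for 11, and the medians of the small and the large subunit were -0.079 and -0.078. This small shift of the median varied with the library left out and with the scaling. It was nearest to 0 without M_WT_5643, at -0.0075 beside 0.023 for all tested genes, with 42 members below 0 and 39 above. It was -0.13 without M_WT_6255 and -0.044 without M_KO_5642. With RLE in place of TMM scaling it was -0.083, with 71 below. Scaling to the members sets their sum level between libraries. The median was then -0.0095, with 44 below and 37 above, beside 0.075 for all tested genes.

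The 3 M_KO and 3 M_WT values did not overlap for 3 members (3.70%), beside 16.1% of all tested genes. Rpl30 was the 1 that was higher in M_KO (8.99% of all tested genes), and Rps18 and Rps2 were the 2 that were lower (7.14%). With 1 library left out the count was 12, 8 and 8 without M_KO_5944, M_KO_5645 and M_KO_5642, and 7, 6 and 26 without M_WT_5643, M_WT_6258 and M_WT_6255. The share of all genes then ran from 21.9% to 31.4%, and without M_WT_6255 it was 24.3%, beside 32.1% of the members.

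**Figure D3:**
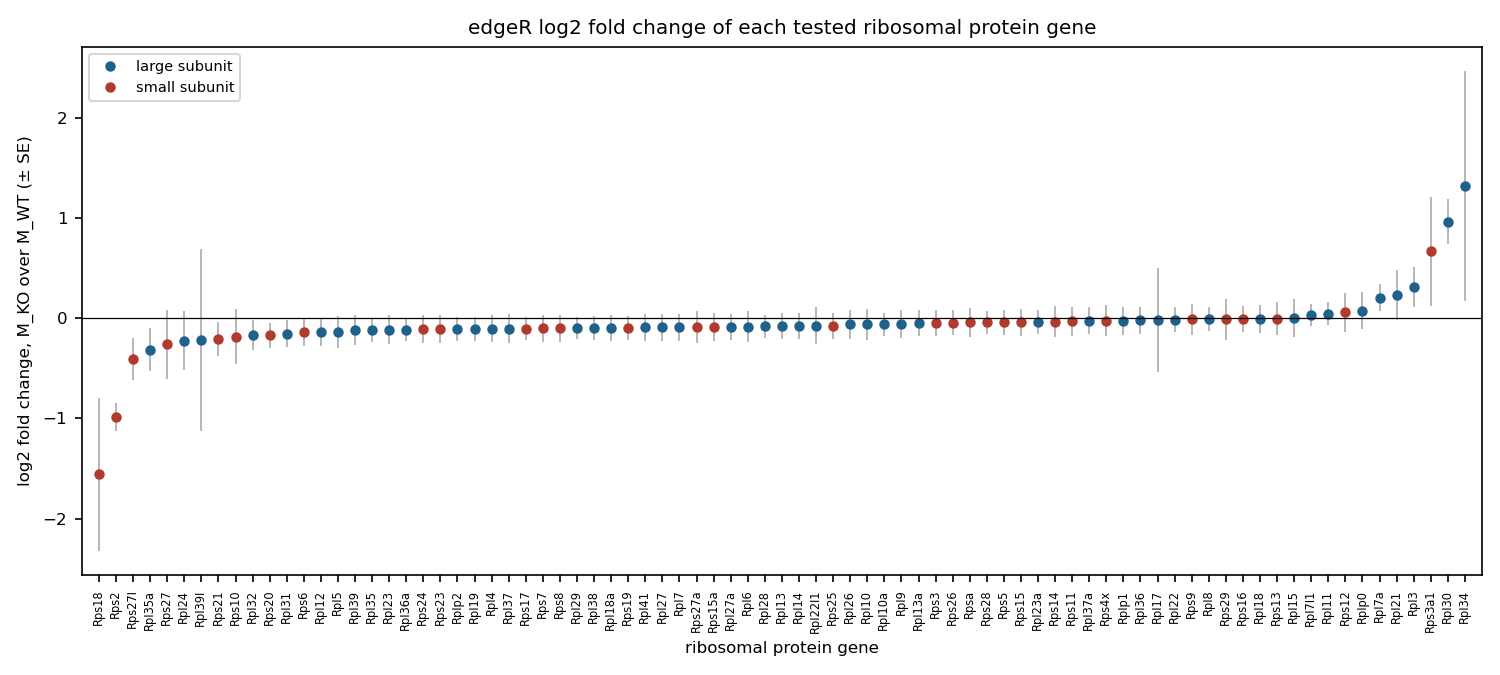
edgeR log2 fold change of M_KO over M_WT, with its standard error, for each of the 81 tested ribosomal protein genes, ordered by value and coloured by subunit. Most points lie within 0.25 of 0, with Rps18 and Rps2 lowest and Rps3a1, Rpl30 and Rpl34 highest.

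Some members differed more, either between single animals of a group or, as for Rps2, between M_KO and M_WT. A member was called split when its mean was at least 10 CPM and the widest gap between neighbouring library values, sorted on a log2(CPM + 0.5) scale, was at least 0.5. Of the 78 members with that mean, 10 were split (12.8%), beside 17.0% of all rows and 16.5% of protein-coding rows with that mean, so the share is not above the background. Just inside the threshold was Rpl29, with a gap of 0.52, and just outside was Rps27l, with 0.44. With a gap of at least 1 the count was 3, namely Rpl34, Rps18 and Rps3a1. Of the 10 genes, 3 lie on chromosome 3 and 2 on chromosome 17, with 1 each on chromosomes 9, 11, 15, 16 and 18.

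**Figure D4:**
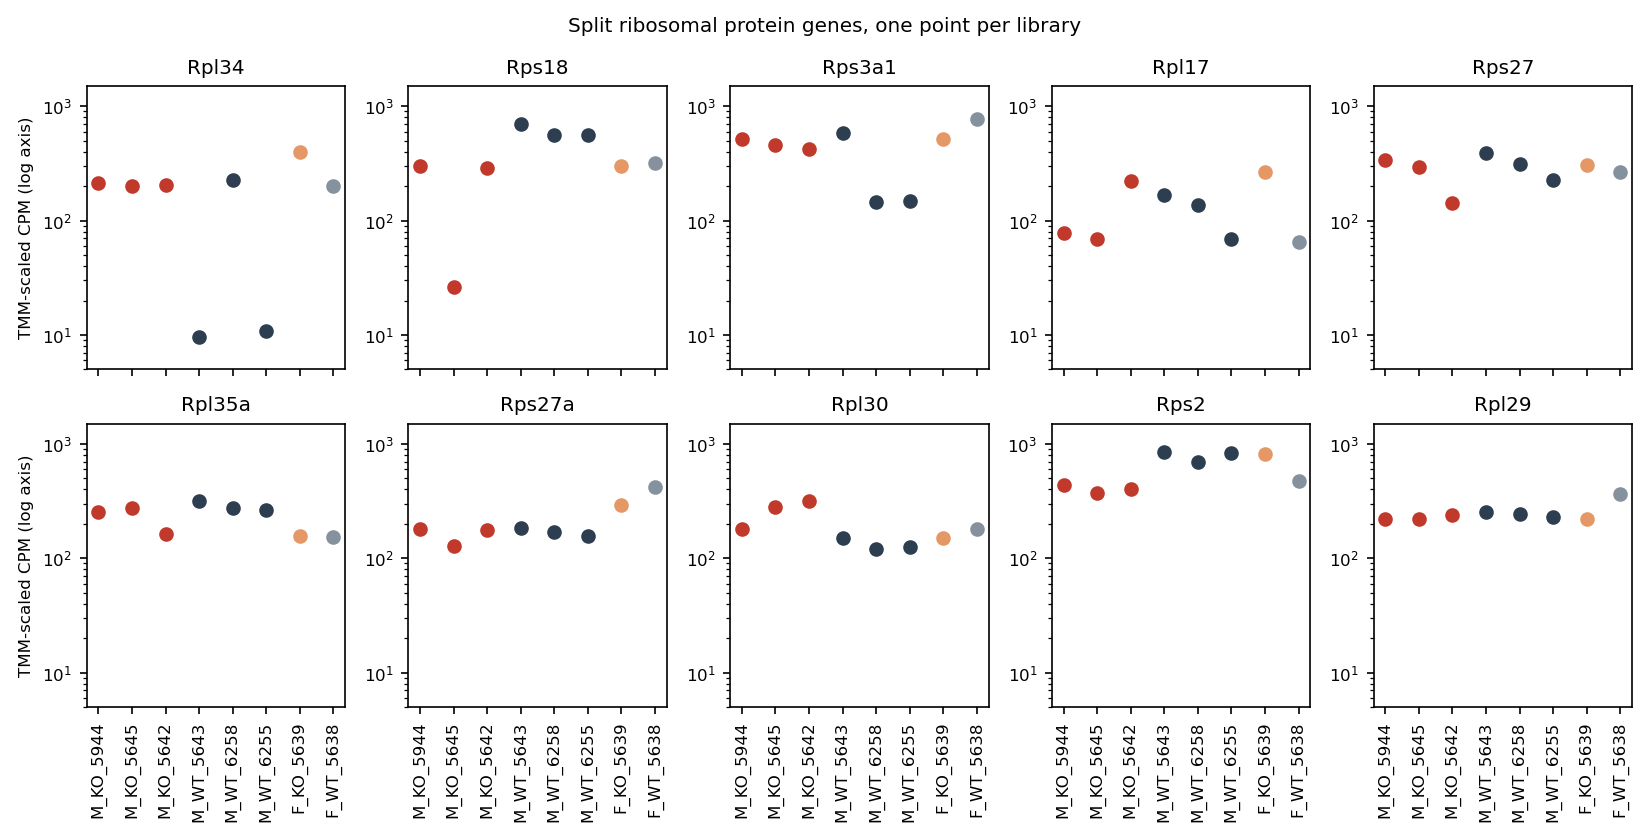
TMM-scaled CPM on a log axis of the 10 split ribosomal protein genes, 1 point per library, with M_KO (red) left of M_WT (dark blue) and F_KO (orange) left of F_WT (grey). Rpl34 is near 10 CPM in 2 M_WT libraries and Rps18 at 26.5 CPM in 1 M_KO library, while Rps2 is lower in all 3 M_KO libraries than in all 3 M_WT libraries.

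For each member, copies were also found by sequence, as annotated transcripts at least 90% identical over at least 50% of the member's coding sequence, at another locus. Of the 83 members, 78 had at least 1 such copy, 1027 copies in all. The 10 split members had a median of 15.5 copies and the 68 other members with that mean 8.5. Copies held a median of 25.4% of the family's summed CPM for the split members and 3.53% for the others. The share of 50-base coding windows found in no other gene's transcripts had a median of 12.0% for the split members and 9.20% for the others. These are descriptions, since the split members were picked by their values.

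Rpl34 differed most between libraries. It had 211, 202 and 203 CPM in M_KO, against 9.59, 225 and 10.9 CPM in M_WT, and it had 394 CPM in F_KO and 202 CPM in F_WT. M_WT_5643 and M_WT_6255 were low, and M_WT_6258 lay with the M_KO libraries, so the groups overlapped. The fitted log2 fold change was 1.32 (SE 1.15, edgeR adjusted p = 0.729), and DESeq2 gave no adjusted p. Leaving out M_WT_6258 gave 4.32, with an edgeR adjusted p of 0.00438, the lowest over its alternatives, whose highest was 0.918. Leaving out M_WT_5643 or M_WT_6255 gave 0.80.

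The copy Rpl34-ps1 ran the opposite way. It had 228, 211 and 185 CPM in M_KO, against 493, 227 and 380 CPM in M_WT, and it had 19.9 CPM in F_KO and 219 CPM in F_WT. It was highest in the same M_WT libraries in which Rpl34 was lowest, and lowest in F_KO, where Rpl34 was highest. The sum of Rpl34 and its 10 sequence copies was 448, 421 and 397 CPM in M_KO and 505, 461 and 394 CPM in M_WT, and 425 CPM in F_KO and 428 CPM in F_WT. The highest library was 1.28-fold above the lowest for the sum, beside 41.1-fold for Rpl34 alone. On the summed counts the log2 fold change was -0.11 (SE 0.14, edgeR adjusted p = 0.828).

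Rps3a1 was low in M_WT_6255, as Rpl34 was, and in M_WT_6258, where Rpl34 was not low. It had 516, 461 and 426 CPM in M_KO, against 585, 146 and 149 CPM in M_WT, and it had 516 CPM in F_KO and 779 CPM in F_WT. M_WT_5643 was above the M_KO libraries, so the groups overlapped. The log2 fold change was 0.67 (SE 0.55, edgeR adjusted p = 0.710). Leaving out M_WT_5643 gave 1.67, with an edgeR adjusted p of 0.0451, within a range of 0.0451 to 0.970 over its alternatives. Leaving out M_WT_6258 gave 0.33 and leaving out M_WT_6255 gave 0.35.

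Its copies were high where it was low. Rps3a2 had 182, 174 and 142 CPM in M_KO, against 204, 316 and 326 CPM in M_WT, and Rps3a3 on chromosome 13 had 115, 109 and 95.8 CPM in M_KO, against 132, 230 and 214 CPM in M_WT. In the F pair, Rps3a2 had 210 CPM in F_KO and 2.72 CPM in F_WT, and Rps3a3 had 115 CPM in F_KO and 1.94 CPM in F_WT. Both copies were thus near 0 in F_WT, the library in which Rps3a1 was highest. With its 7 copies Rps3a1 summed to 814, 746 and 666 CPM in M_KO and 925, 694 and 691 CPM in M_WT, and to 843 CPM in F_KO and 787 CPM in F_WT. The range of the sum was 1.39-fold, beside 5.35-fold for Rps3a1 alone, and the log2 fold change of the summed counts was -0.058 (SE 0.17, edgeR adjusted p = 0.928).

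Rps2 was the member with the smallest p in the M comparison. It had 434, 373 and 400 CPM in M_KO, against 848, 699 and 836 CPM in M_WT. The means were 403 ± 30.5 CPM in M_KO and 794 ± 82.9 CPM in M_WT (SD, n = 3 each), and the groups did not overlap. The log2 fold change was -0.98 (SE 0.14, unadjusted p = 0.000275). The adjusted p missed the threshold in edgeR (0.302) but not in DESeq2 (2.07e-07). Over all alternatives the adjusted p ran from 2.07e-07 to 0.785. The authors' deposited table gives -0.98 with an adjusted p of 0.0188. In the F pair the order was turned round, with 816 CPM in F_KO and 472 CPM in F_WT. The interaction of genotype and letter, in which F has 1 library per genotype, was 1.77 on the log2 scale (F minus M), and its adjusted p was 0.703 in edgeR and 3.5e-05 in DESeq2.

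The leading copies of Rps2 did not all run the same way. Rps2-ps10 on chromosome 18 had 255, 217 and 213 CPM in M_KO, against 17.4, 11.3 and 16.7 CPM in M_WT, and it had 19.9 CPM in F_KO and 278 CPM in F_WT. It rose in M_KO with a log2 fold change of 3.91 (SE 0.21, edgeR adjusted p = 0.00373). Without M_WT_6255, where edgeR called 0 of all 14087 tested genes, it was 3.99 (edgeR adjusted p = 0.0768), and the call was kept without each other M library. Rps2-ps13 had 82.0, 75.4 and 65.9 CPM in M_KO, against 32.9, 46.1 and 32.9 CPM in M_WT, and it had 34.6 CPM in F_KO and 96.6 CPM in F_WT. Both were high where Rps2 was low. Gm45855 was low where Rps2 was low, at 4.60, 6.93 and 5.53 CPM in M_KO, against 10.6, 10.6 and 13.9 CPM in M_WT, and it had 8.57 CPM in F_KO and 4.88 CPM in F_WT. With its 54 copies Rps2 summed to 794, 688 and 701 CPM in M_KO and 935, 792 and 925 CPM in M_WT, and to 897 CPM in F_KO and 870 CPM in F_WT. The sums of M_KO and M_WT overlapped, and their log2 fold change was -0.29 (SE 0.14, edgeR adjusted p = 0.563).

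Rpl30, a large-subunit protein, was the member that was higher in every M_KO library. It had 181, 282 and 316 CPM in M_KO, against 152, 120 and 126 CPM in M_WT, and it had 151 CPM in F_KO and 179 CPM in F_WT. The means were 260 ± 70.1 CPM in M_KO and 133 ± 16.8 CPM in M_WT (SD, n = 3 each). The log2 fold change was 0.96 (SE 0.22, edgeR adjusted p = 0.434), with a DESeq2 adjusted p of 0.0226 and a range of 0.0226 to 0.923 over its alternatives. The authors' deposited table gives 0.97 with an adjusted p of 0.0722.

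Within M_KO, the copy Gm12191 was lowest where Rpl30 was highest. Gm12191 had 149, 33.5 and 9.96 CPM in M_KO, against 176, 151 and 147 CPM in M_WT, and it had 150 CPM in F_KO and 122 CPM in F_WT. With its 17 sequence copies Rpl30 summed to 343, 335 and 330 CPM in M_KO and 351, 289 and 287 CPM in M_WT, and to 315 CPM in F_KO and 305 CPM in F_WT. The difference was 0.12 on the log2 scale by summed counts (SE 0.13, edgeR adjusted p = 0.794). Copies named by symbol or description do not include Gm12191, and with those alone the difference of the means was 0.85.

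Rps18 stood apart from these genes because its sum did not level out. It had 302, 26.5 and 288 CPM in M_KO, against 697, 561 and 555 CPM in M_WT, and it had 298 CPM in F_KO and 321 CPM in F_WT. M_KO_5645 was far below every other library, the M groups did not overlap, and both F libraries lay with the higher M_KO libraries. The means were 205 ± 155 CPM in M_KO and 604 ± 80.0 CPM in M_WT (SD, n = 3 each). The log2 fold change was -1.56 (SE 0.77, edgeR adjusted p = 0.562). Leaving out M_KO_5645 gave -1.04.

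Gm11361, the protein-coding copy of Rps18, had 108, 140 and 85.7 CPM in M_KO, against 7.91, 7.51 and 6.65 CPM in M_WT, and it had 78.2 CPM in F_KO and 86.4 CPM in F_WT. It rose in M_KO with a log2 fold change of 3.91 (SE 0.22, edgeR adjusted p = 0.00373). Without M_WT_6255, where edgeR called 0 of all 14087 tested genes, it was 3.84 (edgeR adjusted p = 0.0768), and the call was kept without each other M library. Rps18-ps3 had 7.61, 17.3 and 7.23 CPM in M_KO, against 1.78, 3.20 and 2.54 CPM in M_WT. With its 13 sequence copies Rps18 summed to 418, 186 and 381 CPM in M_KO and 708, 573 and 565 CPM in M_WT, and to 388 CPM in F_KO and 420 CPM in F_WT. The sums of M_KO and M_WT still did not overlap, and the log2 fold change of the summed counts was -0.91 (SE 0.31, edgeR adjusted p = 0.478).

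**Figure D5:**
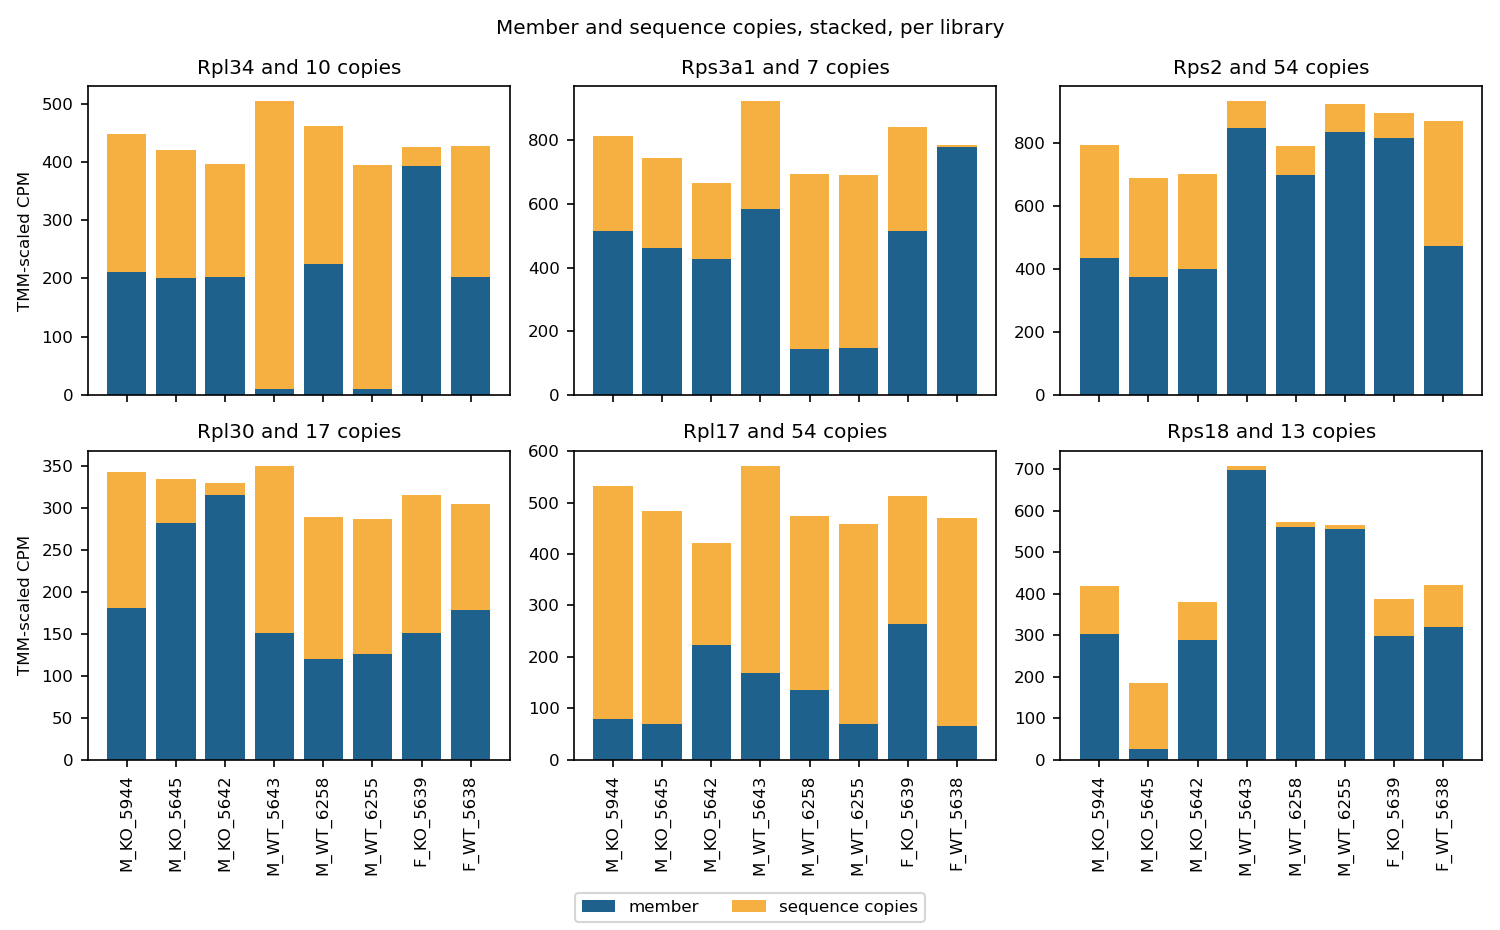
Stacked bars of TMM-scaled CPM per library for 6 split members (blue) and all their sequence copies (orange), with M_KO left of M_WT and F_KO left of F_WT. The bar heights of Rpl34, Rps3a1, Rps2, Rpl30 and Rpl17 vary far less than their blue parts, while those of Rps18 still range 3.81-fold.

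The other split members differed less. Rpl17 (large subunit) had 78.5, 69.4 and 223 CPM in M_KO, against 169, 136 and 69.6 CPM in M_WT, and it had 263 CPM in F_KO and 65.2 CPM in F_WT. High and low libraries were mixed in both genotypes, and the log2 fold change was -0.013 (SE 0.52, edgeR adjusted p = 0.997). Its copy Rpl17-ps10 on chromosome 7 had 286, 285 and 85.9 CPM in M_KO, against 221, 238 and 259 CPM in M_WT, and it had 110 CPM in F_KO and 261 CPM in F_WT. With its 54 copies the range of Rpl17 was 1.36-fold, beside 4.04-fold alone. None of its 50-base coding windows was free of a match in another gene (0%).

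Rps27, a small-subunit protein with a zinc finger, had 341, 295 and 144 CPM in M_KO, against 389, 313 and 228 CPM in M_WT, with M_KO_5642 low. Rps27rt on chromosome 9, whose coding sequence is identical to that of Rps27 (100%), had 40.9, 142 and 179 CPM in M_KO, against 87.5, 97.6 and 80.6 CPM in M_WT. It was highest in M_KO_5642. The sum of Rps27 and its 11 copies ranged 1.60-fold over the 8 libraries.

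Rpl35a had 256, 276 and 161 CPM in M_KO, against 318, 277 and 263 CPM in M_WT, and it had 157 CPM in F_KO and 152 CPM in F_WT. M_KO_5642 and both F libraries were low. Its copies held 7.75% of the family's CPM. Gm10243, which differs from Rpl35a at 1 coding base, was highest in those libraries, at 22.0 CPM in M_KO_5642, 27.2 CPM in F_KO and 19.4 CPM in F_WT, and between 2.44 and 7.15 CPM elsewhere.

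Rps27a encodes a fusion of ubiquitin and a small-subunit protein, and it separated the letters rather than the genotypes. It had 178, 128 and 177 CPM in M_KO and 186, 170 and 158 CPM in M_WT, against 294 CPM in F_KO and 415 CPM in F_WT. Summing its 14 copies left it split, with a range of 2.76-fold. With 1 library per F genotype the letters were not compared by a test here. Rpl29 was high in F_WT alone, at 365 CPM, beside 221 CPM in F_KO and 220 to 255 CPM in the M libraries.

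When each member's counts were replaced by the sum with its sequence copies, 2 of the 10 split members remained split at the gap of 0.5, Rps18 and Rps27a. That cutoff does not mean that the others levelled out. The sum still ranged 1.79-fold for Rpl35a, beside 2.09-fold alone, and 1.57-fold for Rpl29, beside 1.66-fold alone. In the same summed counts edgeR called 0 members, as it did 0 of all 13449 tested genes, with 1 member at an unadjusted p under 0.05, beside 9.58% of all tested genes, and the median log2 fold change was -0.073. For 51 of the 78 members with a mean of at least 10 CPM, the family's range over libraries was narrower than the member's own. The median range hardly moved, from 0.343 for the member to 0.338 for the family on the log2 scale.

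In the fit of genotype and letter to all 8 libraries, edgeR called 0 of 81 members for genotype, against 0.00727% of all tested genes, with 2 at an unadjusted p under 0.05 (Rps27l and Rpl30; 9.48% of all tested genes), and DESeq2 called 0, against 1.03%. For the interaction edgeR called 0 members, against 0.0218% of all tested genes, with 3 at an unadjusted p under 0.05 (Rps2, Rpl29 and Rpl30; 4.36% of all tested genes), and DESeq2 called 1, Rps2, against 0.218%. The 3 genes that edgeR called for the interaction were all copies of members, namely Rps3a2, Rps3a3 and Rps2-ps10. The spread in this test comes from the M libraries alone, so the letter and the single F animals cannot be told apart. Without M_WT_6255 and without M_KO_5645 edgeR called 0 of all tested genes for the interaction (edgeR adjusted p of the 3 copies from 0.0600 to 0.124). The interactions were then 6.93 and 7.07 for Rps3a2, 6.66 and 6.75 for Rps3a3, and -7.79 and -7.76 for Rps2-ps10.

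Other genes of protein synthesis and its regulation follow as lists. At an adjusted p under 0.05 edgeR and DESeq2 called 0 genes in each, against 0.022% and 1.47% of all tested genes. Their counts at an unadjusted edgeR p under 0.05 stand beside 9.56% of all tested genes, and their shares without overlap beside 16.1%. M_KO and M_WT did not overlap for 7.89% of the mitochondrial ribosomal proteins, 12.5% of the ribosome biogenesis genes, 0 of the other oligopyrimidine messages and 25% of the upstream regulators. Of 76 tested proteins of the mitochondrial ribosome, which translates the messages of mitochondrial DNA, 40 had a fitted value above 0 and 36 below, with a median of 0.0067 and 1 at an unadjusted edgeR p under 0.05. Mrpl21 averaged 14.0 ± 2.06 CPM in M_KO and 18.6 ± 1.96 CPM in M_WT (log2 fold change -0.41, SE 0.17, edgeR adjusted p = 0.514), and Mrpl52 averaged 50.1 ± 5.61 CPM in M_KO and 59.9 ± 2.20 CPM in M_WT. Of 40 ribosome biogenesis genes, 11 were above 0 and 29 below, with a median of -0.099 and 1 at an unadjusted p under 0.05. Nmd3, which escorts the large subunit out of the nucleus, averaged 26.8 ± 3.90 CPM in M_KO and 35.7 ± 4.63 CPM in M_WT, and Rrs1, an assembly factor of the large subunit, averaged 36.1 ± 4.33 CPM in M_KO and 43.0 ± 0.942 CPM in M_WT.

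Of 21 other messages with a terminal oligopyrimidine tract, 5 were above 0 and 16 below, with a median of -0.081 and 1 at an unadjusted p under 0.05. Gas5, a host gene of small nucleolar RNAs, had 13.1, 15.9 and 11.3 CPM in M_KO, against 12.2, 38.2 and 46.8 CPM in M_WT, and the groups overlapped through M_WT_5643 (log2 fold change -1.28, SE 0.46, edgeR adjusted p = 0.478). Of 16 tested upstream regulators, 10 were above 0 and 6 below, with a median of 0.033 and 3 at an unadjusted p under 0.05. Mdm2, the p53 ubiquitin ligase that several ribosomal proteins bind, averaged 150 ± 28.1 CPM in M_KO and 235 ± 52.5 CPM in M_WT (log2 fold change -0.65, SE 0.22, edgeR adjusted p = 0.474). Rps6ka1, a kinase, averaged 55.4 ± 7.37 CPM in M_KO and 37.4 ± 3.82 CPM in M_WT (log2 fold change 0.56, SE 0.15, edgeR adjusted p = 0.434).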

How the data were processed

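RNA of 8 libraries was prepared with a NEBNext Ultra RNA kit, per the labels' protocols. Builds GRCm38 and mm10 stand in the submitters' processing notes, beside DESeq2 1.16.1, featureCounts 1.5.0-p3 and HISAT2 2.0.5. No source used here states the annotation release, the strand setting or the treatment of multi-mapping reads. Read counts per gene in the deposited table are whole and were not normalized by the authors. The deposited FPKM table holds FPKM values made by the authors. For M_KO against M_WT the authors also deposited a table with a signal per library that they made from the counts, log2 fold changes and p-values. Value columns without a sample numbered 0.

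Counts were tested with the quasi-likelihood test of edgeR 4.0.16 in R 4.3.3, with TMM scaling and filterByExpr on genotype, and Benjamini-Hochberg adjustment over all tested genes with a threshold of 0.05. For M_KO against M_WT only the 6 M libraries were fitted, and for the other models all 8 with the letter as a term. Standard errors came from the F statistic. CPM values are TMM-scaled over 8 libraries. Nothing shows that libraries of a group came from unrelated animals, so p-values measure the spread between these libraries only. The tests were tried on simulated counts.

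Copies by name share the member's symbol with -ps or its description. Copies by sequence came from blastn 2.17.0 of coding sequences against GENCODE M21 transcripts, and the match also had to cover at least 50% of the copy's counted length. Coordinates in the table were those of M21 for 81 of 83 members and 53462 of 54409 shared rows. Sequences came from M21.

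Alternatives were DESeq2 1.42.0, RLE scaling, scaling to the members, no filter, at least 1 CPM in 3 libraries, limma 3.58.1 on log2(FPKM + 1) for genes with a mean of at least 0.5 FPKM, a covariate for animal numbers beginning with 56, other limits for the split rule, and each library left out. Sequence copies and the sums with them were added after seeing the data. The genes named are Men1, the split members, the 5 highest and 5 lowest by FPKM, non-overlapping members with a mean log2 CPM of at least 1, called members, the paralogs, leading copies and up to 2 genes per list with the smallest p. Other copies and members named singly were chosen after their values were seen. Of the genes this rule names, 1 list gene is not reported here. Members and lists were chosen with earlier results of these data known.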

Additional observations from a re-analysis of the deposited data

Results flagged for a closer look

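In 3 copies of ribosomal protein genes the difference between KO and WT passed edgeR's interaction test of F against M. F has 1 library per genotype and the spread comes from the M libraries alone, so the letter and a single animal cannot be told apart. Rps3a2 had an interaction of 7.04 (F minus M, log2; SE 0.50, edgeR adjusted p = 0.0209) and Rps3a3 one of 6.74 (SE 0.52, edgeR adjusted p = 0.0234). Both rest on F_WT, where they stood at 2.72 and 1.94 CPM. Rps2-ps10 had an interaction of -7.72 (SE 0.45, edgeR adjusted p = 0.0104), with 19.9 CPM in F_KO and 278 CPM in F_WT, against 255, 217 and 213 CPM in M_KO and 17.4, 11.3 and 16.7 CPM in M_WT. The Rps2-ps10 call was lost without M_WT_6255 (edgeR adjusted p = 0.0869) and without M_KO_5645 (0.0600). Those of Rps3a2 and Rps3a3 were lost without M_WT_6255 (0.0983 and 0.124), without M_KO_5645 (0.0786 and 0.0954) and without M_KO_5944 (0.0800 for both), and that of Rps3a3 also without M_KO_5642 (0.0575). The interactions themselves ran from 6.93 to 7.22 for Rps3a2, 6.58 to 6.94 for Rps3a3 and -7.84 to -7.55 for Rps2-ps10 with a library left out. The division of reads between members and copies was not tested.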

How the results depend on the processing

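For members called in M, edgeR's 0 became 2 with DESeq2 and 0 to 1 with a library left out. For the interaction it became 1 with DESeq2 and 0 to 1 with a library left out. For genotype over all 8 libraries it was 0 in every alternative run. The count of members without overlap was 5 with scaling to the members, where the share of all genes is not given here. It was 6 to 26 with a library left out (7.41% to 32.1%), beside 21.9% to 31.4% of all tested genes. Split members numbered 3 at a gap of 1, 2 after summing with sequence copies, and 9 to 11 with a library left out. The summed Rps3a1 difference was 0.67 with -ps symbols alone, which include no copy of it, and the summed Rpl30 difference was 0.12 with sequence copies. Log2 fold changes reversed for Rpl17 (0.10 with scaling to the members, 0.27 without M_WT_5643, 0.036 without M_WT_6258, 0.23 without M_KO_5944 and 0.27 without M_KO_5645; range -0.76 to 0.27 with a library left out), Rps27a (0.057 without M_KO_5645, range -0.17 to 0.057), Rps27 (0.028 without M_KO_5642, range -0.50 to 0.028) and, on summed counts, Rpl34 (-0.11) and Rps3a1 (-0.058). Their causes were not tested, beyond fewer libraries or added copies. Scaling to the members moved the median of all genes by -0.12 in the interaction. No paired analysis was possible because the libraries share no animal number. Depth limits Rpl39l, Rpl3l and Rpl10l.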
